A study of Rattus norvegicus with 48 samples.

Results

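Disease-associated microglia genes were followed by RNA-seq in rat cortical cultures. The set held 10 genes, picked by symbol from the deposited expression table, namely Trem2, Tyrobp, Cst7, Lpl, Spp1, Gpnmb, Itgax, Cd9, Axl and Clec7a. All 10 were among the 30211 genes of the table, and all 10 were among the 15890 genes with enough reads to be tested. Cst7 had enough reads only through the groups with Tat. Fetuses of Sprague-Dawley rats, aged 18 days, gave the primary cultures, which were used after 21 days in vitro. There were 48 libraries in 16 groups of 3.

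The untreated cultures were the Control group, and the Cocaine group received cocaine (25 µM) for 24 h. The Tat group received the HIV-1 protein Tat, in its form of residues 1-86, at 6 ng/ml for 48 h, and the Tat-Cocaine group received Tat followed by cocaine. Each of 4 small molecules was added to untreated, Tat and Tat-Cocaine cultures, which made 12 more groups (4OI, Tat-4OI, Tat-Cocaine-4OI and likewise for the others). 4OI (4-octyl itaconate, 250 µM) is an ester of the metabolite itaconate that enters cells. Amlexanox (25 µM) inhibits the kinases TBK1 and IKK-epsilon, Tazemetostat (3 µM) inhibits the histone methyltransferase EZH2, and Senicapoc (1 µM) blocks the potassium channel encoded by Kcnn4. Doses of the 4 compounds were not matched, so their effects are given side by side without a test between compounds. The labels name the cells neurons, but the cultures were mixed and a library is the RNA of all their cells. Since nothing in the labels says that the 3 replicates of a group came from separate preparations, the p-values measure the spread between these libraries, which may be technical.

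Disease-associated microglia are a state of the resident macrophages of the brain that was described around amyloid plaques and in other neurodegeneration. In this state microglia lower their homeostatic receptors and raise genes of lipid uptake, phagocytosis and lysosomal breakdown. The lipid receptor Trem2 and its signalling adaptor Tyrobp carry the step into the full state. Clec7a (dectin-1) recognizes beta-glucans and signals through the kinase Syk, as Tyrobp does. Axl is a receptor tyrosine kinase that binds Gas6 on dying cells. Itgax is the integrin chain CD11c, which pairs with Itgb2, and Cd9 is a tetraspanin of the cell membrane that oligodendrocytes and astrocytes also make. Cst7 (cystatin F) inhibits lysosomal cysteine proteases, Lpl (lipoprotein lipase) releases fatty acids from triglycerides, Spp1 (osteopontin) is a secreted ligand of integrins and Cd44, and Gpnmb is a glycoprotein of lysosomes and the cell surface.

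Values are read counts relative to the total of the library (CPM) with the TMM scaling of the authors, given as mean ± SD of 3 libraries. Depth ranged from 17.5 M to 29.1 M reads per library. Comparisons used limma on log2(CPM + 0.5), with 1 fit to all 48 libraries, and a gene was called where its FDR over the 15890 tested genes was under 0.05. Log2 changes are differences of log2(CPM + 0.5) between groups, a scale that understates the change of genes near or under 0.5 CPM such as Cst7. An exact permutation test of 3 libraries against 3 could not give a two-sided p under 0.1. Where the libraries of compared groups are said not to overlap, this only describes those libraries. The share of all tested genes without overlap is given for Tat-Cocaine-Tazemetostat against Tat-Cocaine alone.

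Markers of microglia and of other cell types were present in the libraries. Of 10 general myeloid markers (Aif1, Itgam, Csf1r, Ptprc, Laptm5, Spi1, Irf8, Cyth4, Ctss and Fcer1g, together the myeloid index) all 10 were tested, and their summed level ranged from 376.7 to 3773 CPM over the libraries. Of 11 homeostatic microglia genes 10 were tested, with P2ry12 between 2.74 and 40.5 CPM and Cx3cr1 between 12.2 and 131.9 CPM, while Siglech was listed at 0 in each library. Neuron markers summed to 1154 to 5059 CPM and astrocyte markers to 5550 to 12830 CPM, so all of these cell types left RNA in the libraries. Monocyte and neutrophil markers summed to 2.74 to 101.7 CPM, although S100a9 reached at most 0.255 CPM, Mpo 0.252 CPM and Ly6c 0 CPM. Endothelium and fibroblast markers summed to 34.1 to 302.8 CPM, although endothelial Cldn5 did not exceed 0.1003 CPM. A pair of libraries stood apart. Replicate 3 of Cocaine held 27103 CPM of oligodendrocyte markers, against at most 2416 CPM elsewhere. Replicate 2 had the highest myeloid index of its group in 15 of 16 groups, and the exception was Tat-Cocaine, where replicate 2 was the lowest (1061 CPM, against 1628 and 1781 CPM). Without Cocaine replicate 3, 0 of the 10 genes were called by limma against Control, as with it. Without Tat-Cocaine replicate 2, the number called stayed at 3 for Tat-Cocaine against Control, 2 for Tat-Cocaine-4OI and 3 for Tat-Cocaine-Tazemetostat against Tat-Cocaine, and went from 3 to 2 for Amlexanox and from 4 to 3 for Tazemetostat averaged over the 3 backgrounds. In bulk cultures, fewer microglia and less of a transcript per microglial cell cannot be told apart, and this holds for each result given here.

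The receptors and their adaptor differed in how far they moved. Clec7a had the widest range of group means among them, from 1.33 ± 0.0972 CPM in 4OI to 29.1 ± 3.46 CPM in Tat-Cocaine-Tazemetostat, and 12 of the 15 steps between neighbours in its order of groups were within the spread of the libraries. Trem2 lay between 20.6 ± 12.9 CPM in Tat-Cocaine and 94.9 ± 27.6 CPM in Tat-Cocaine-Tazemetostat. Tyrobp lay between 48.0 ± 31.7 CPM in Tat-Cocaine-4OI and 163 ± 43.5 CPM in Tat-Cocaine-Tazemetostat, and Axl between 94.3 ± 23.01 CPM in Senicapoc and 183 ± 84.4 CPM in Cocaine. For Trem2, Tyrobp and Axl all 15 steps between neighbouring groups were within the spread, so that a single step in their order is not a difference.

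Among the surface proteins and the secreted and lysosomal products, Itgax and Cst7 spanned the widest ranges. Itgax went from 1.97 ± 1.32 CPM in Amlexanox to 26.05 ± 14.1 CPM in Tat, and Cst7 from 0.147 ± 0.109 CPM in Senicapoc to 7.84 ± 5.06 CPM in Tat-Cocaine. Gpnmb went from 283 ± 42.5 CPM in Tat-4OI to 1435 ± 193 CPM in Tat-Cocaine-Tazemetostat. Spp1 lay between 120 ± 61.9 CPM in Senicapoc and 647 ± 51.1 CPM in Tat-Tazemetostat, and Lpl between 20.4 ± 1.08 CPM in Senicapoc and 59.0 ± 19.2 CPM in Tat-Cocaine-Tazemetostat. Cd9 had its highest mean in Cocaine, 544 ± 253 CPM, which rested on replicate 3 (833 CPM), the library with the high oligodendrocyte markers, while replicates 1 and 2 stood at 363 and 436 CPM. The lowest mean of Cd9 was 244 ± 14.8 CPM in Tat-Senicapoc. Neighbouring groups overlapped in 14 of 15 steps for Gpnmb and Itgax and in 15 of 15 for Cst7, Lpl, Spp1 and Cd9.

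**Figure D1:**
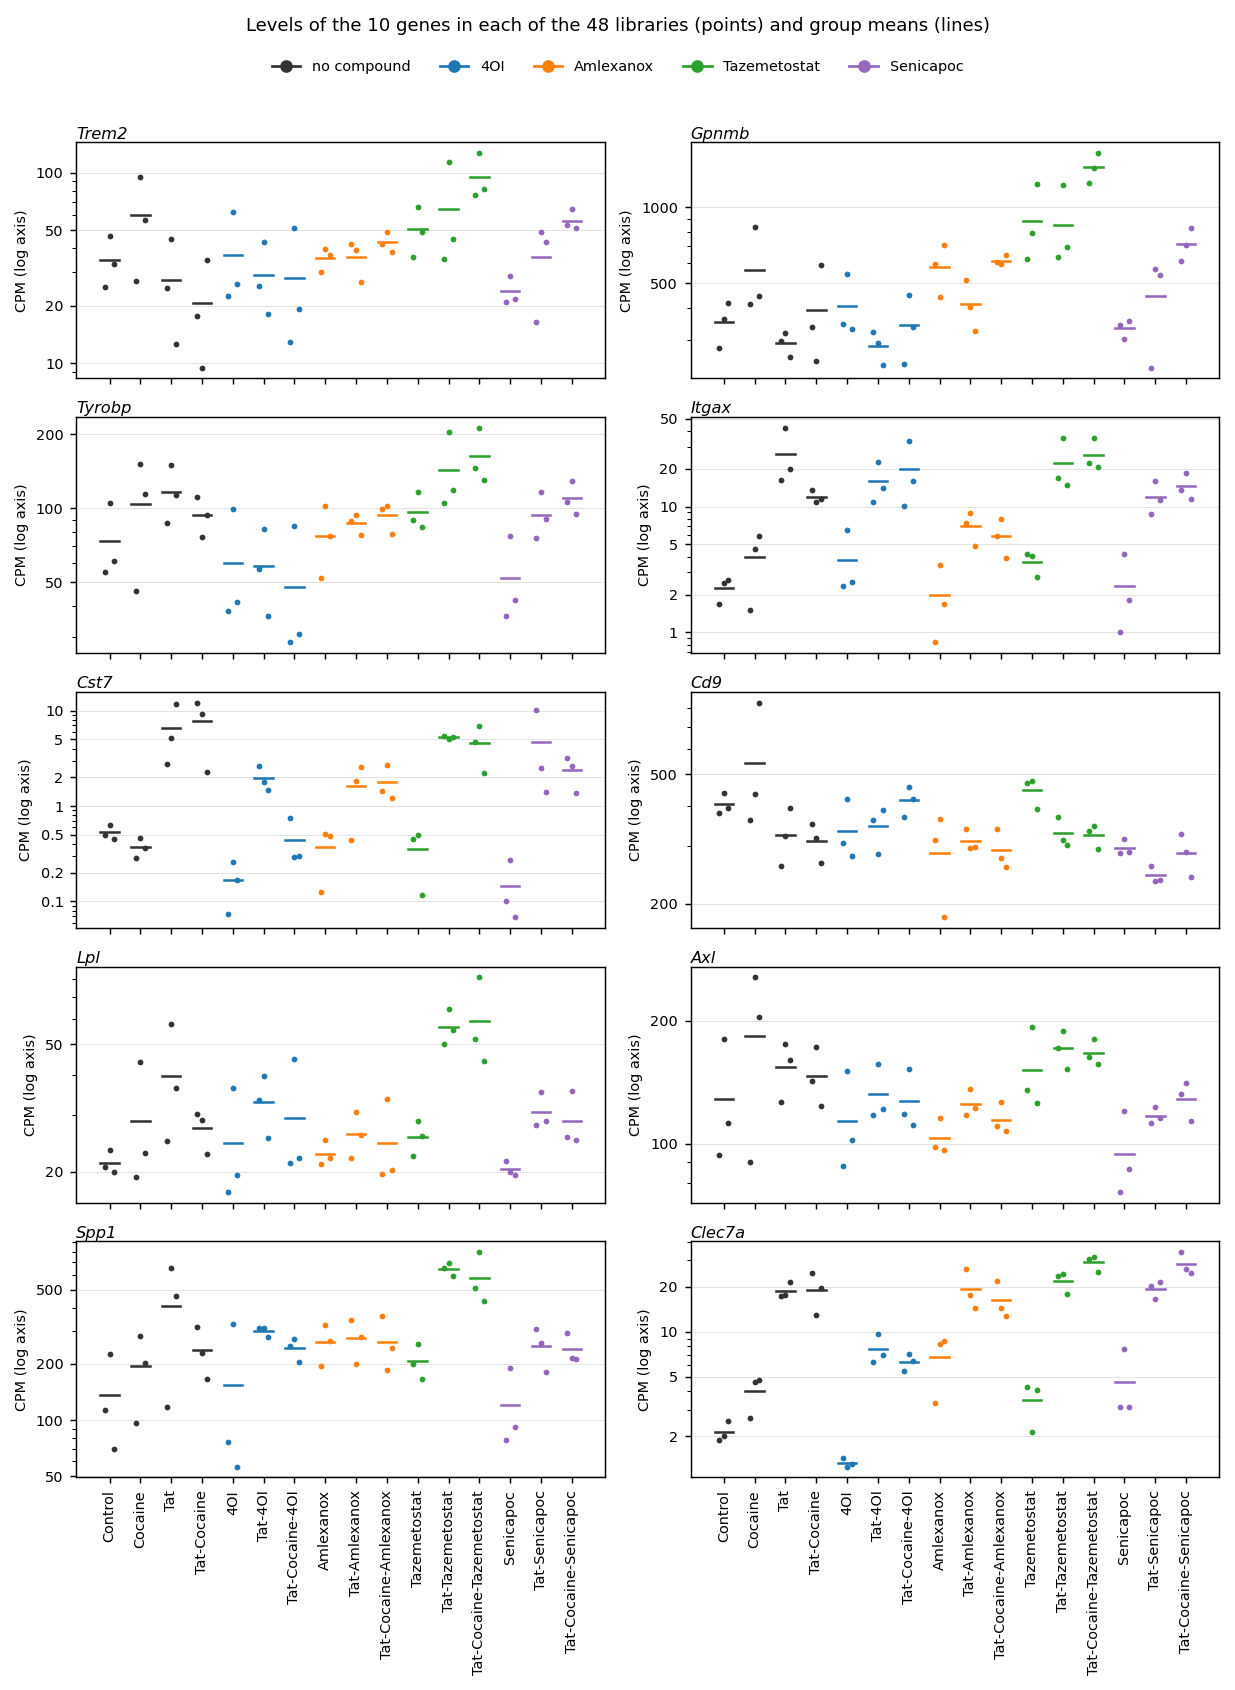
Level of each of the 10 genes in CPM (y axis, log scale) in the 16 groups (x axis), with 1 point per library (replicates 1 to 3 from left to right) and a line at the group mean, coloured by compound. The mean of Itgax is higher in each group with Tat than in any without, though single libraries overlap. Clec7a and Cst7 also step up with Tat, with Tat-Cocaine-4OI as the exception. There Clec7a (6.31 CPM) is below Amlexanox without Tat (6.80 CPM), and Cst7 (0.446 CPM) is below Control (0.530 CPM). Gpnmb is highest in the Tazemetostat groups, and Axl stays within 76.2 to 255 CPM in all 48 libraries.

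The 10 genes did not vary as 1 block. Over the 16 group means of log2(CPM + 0.5), Pearson's r of the 45 pairs had a median of 0.51 and ran from −0.54 for Cd9 with Clec7a to 0.90 for Trem2 with Gpnmb. Lpl and Spp1 had an r of 0.89, and Cst7 and Clec7a of 0.85. Trem2 and Gpnmb were close to 0 with Cst7 (0.08 and 0.17) and with Itgax (0.11 and 0.14). With the other genes called with Tat they were at 0.23 and 0.33 for Clec7a, 0.49 and 0.50 for Lpl and 0.44 and 0.51 for Spp1. Tyrobp followed the myeloid index most closely (0.93) and Cd9 ran against it (−0.30). These values are descriptions over 16 points, which share replicate numbers and the cells of the cultures.

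Outside the set, the genes with the most similar pattern over the 16 group means were named for each member. Trem2 was nearest to the lysosomal nuclease Dnase2 (r = 0.93) and the lysosomal peptidase Scpep1 (0.92), followed by AABR07039446.2 (0.90), a gene without a name. Gpnmb was nearest to the lysosomal amino acid exporter Slc66a1 (0.96), then Snx8 (0.95) and Mfsd11 (0.93). Tyrobp was nearest to the leukocyte genes Cd53 (0.98) and Irf8 (0.98) and to Dram2 (0.98). Clec7a was nearest to the prostaglandin receptor Ptger2 (0.97), the myeloid kinase Fgr (0.97) and the receptor Oscar (0.97). Cst7 was nearest to Il23r (0.97), Ptprcap (0.96) and Cd274 (0.96), and Itgax to Mdc1 (0.98), Ssh1 (0.96) and Mtap (0.96). Lpl was nearest to Plek (0.94), AABR07012302.1 (0.93) and Rrbp1 (0.92). Spp1 was nearest to genes of the translation machinery, Rpl4 (0.94), Eef1g (0.94) and Eef2 (0.93). Cd9 was nearest to Slc14a1 (0.95), Rassf8 (0.90) and Tcta (0.90), and Axl to Zfp395 (0.90), Golim4 (0.90) and Arrdc4 (0.88).

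**Figure D2:**
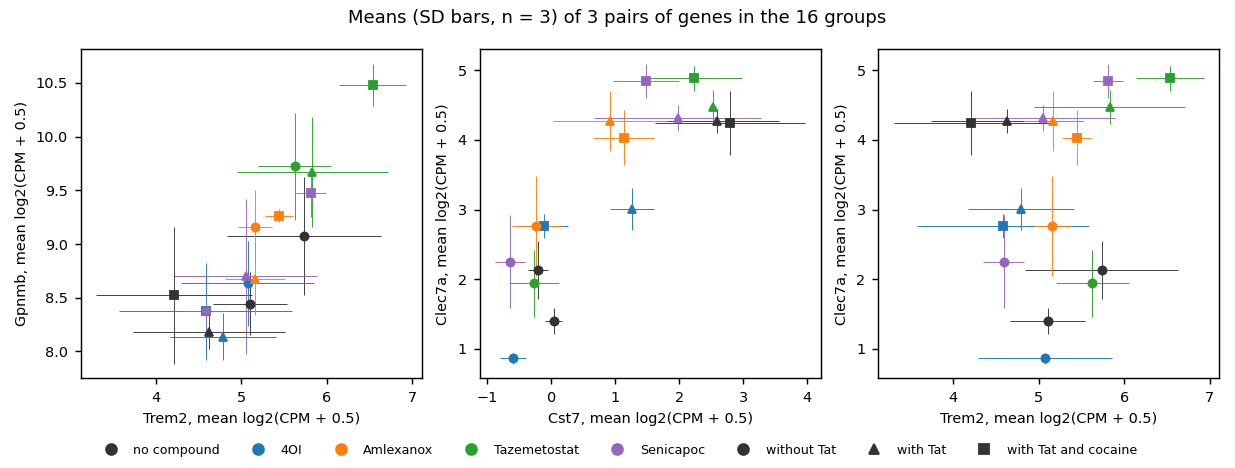
Group means of log2(CPM + 0.5) for Trem2 with Gpnmb, Cst7 with Clec7a, and Trem2 with Clec7a (axes in log2 units), with 1 symbol for each of the 16 groups and SD bars of the 3 libraries. Trem2 and Gpnmb lie along 1 line (r = 0.90) with Tat-Cocaine-Tazemetostat at its end, whereas Clec7a spans 1.33 to 29.1 CPM over the groups without following Trem2 (r = 0.23).

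The promoters of 4 genes are shown because Trem2 and Gpnmb varied together and because Itgax and Clec7a rose with Tat. They are the 250 bases before the start site of each gene in RefSeq on the rat assembly GRCr8, read 5′ to 3′ on the strand of the gene, and capitals mark the motif TGANTCA, the letters bound by AP-1 factors. The window of Trem2 is chr9:20151780-20152029 on the minus strand and that of Gpnmb chr4:79340878-79341127 on the plus strand. The window of Itgax is chr1:192149799-192150048 on the plus strand and that of Clec7a chr4:164599828-164600077 on the minus strand.
Trem2: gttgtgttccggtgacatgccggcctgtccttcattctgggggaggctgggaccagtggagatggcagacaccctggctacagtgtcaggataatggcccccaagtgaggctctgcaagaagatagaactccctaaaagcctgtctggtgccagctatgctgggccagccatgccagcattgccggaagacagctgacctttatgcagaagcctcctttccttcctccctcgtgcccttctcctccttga
Gpnmb: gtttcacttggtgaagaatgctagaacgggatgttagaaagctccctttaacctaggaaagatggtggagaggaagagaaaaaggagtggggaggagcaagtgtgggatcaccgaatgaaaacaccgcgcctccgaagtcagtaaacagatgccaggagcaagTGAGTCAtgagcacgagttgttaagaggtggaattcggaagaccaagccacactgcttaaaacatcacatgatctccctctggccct
Itgax: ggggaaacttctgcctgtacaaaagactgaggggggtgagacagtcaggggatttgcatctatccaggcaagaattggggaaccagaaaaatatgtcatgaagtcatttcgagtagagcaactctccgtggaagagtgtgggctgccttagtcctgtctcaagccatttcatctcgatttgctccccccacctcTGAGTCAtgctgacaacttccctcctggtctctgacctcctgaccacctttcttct
Clec7a: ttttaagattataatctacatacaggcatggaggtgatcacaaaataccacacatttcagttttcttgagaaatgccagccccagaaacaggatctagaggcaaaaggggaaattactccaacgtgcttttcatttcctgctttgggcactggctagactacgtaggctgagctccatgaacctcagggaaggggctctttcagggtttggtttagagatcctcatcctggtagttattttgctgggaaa

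Windows of the same length were found for 8 of the 10 genes, all but Tyrobp and Lpl, and were searched on both strands for 4 motifs. TGANTCA was found in 2 of the 8, at 87 bases before the start of Gpnmb and at 56 bases before that of Itgax, and in 6.34% of all 33469 promoter windows. CACGTG, an E-box read by MITF and TFE factors, was found in 0 of the 8 and in 5.59% of all windows. Only these letters were searched for, so the count does not show that a window lacks other sites of MITF and TFE factors. The Gpnmb window holds the similar letters tcacatga near its end, a form that was not searched for. GAGGAAGT, a core of PU.1 sites, was found in 0 of the 8 (2.04% of all), and TGACNNNGC, the core of the antioxidant response element, in 0 of the 8 (10.1% of all). None of the 4 motifs overlapped another in these windows, and a match is only a match of letters.

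With Tat against Control, Itgax, Clec7a and Cst7 rose, Lpl and Spp1 passed the threshold with less margin, and Trem2, Tyrobp, Gpnmb, Cd9 and Axl did not pass. Itgax stood at 1.69, 2.45 and 2.59 CPM in the Control libraries and at 16.2, 42.2 and 19.7 CPM in the Tat libraries, which do not overlap. The log2 change of Itgax was 3.17 (SE 0.46, limma FDR 4.85e-06). Clec7a was even among libraries, with 1.88, 2.01 and 2.54 CPM in Control and 17.2, 17.7 and 21.6 CPM in Tat, a log2 change of 2.87 (SE 0.30, limma FDR 8.1e-09). Cst7, near the floor of the assay in Control (0.498, 0.637 and 0.454 CPM), reached 2.74, 5.10 and 11.7 CPM with Tat, a log2 change of 2.56 (SE 0.50, limma FDR 0.000302). Among libraries without Tat only Control replicate 2 (0.637 CPM) and Amlexanox replicate 2 (0.504 CPM) reached the 0.5 CPM of the filter for Cst7. Cst7 was thus tested only because it was high in groups with Tat, so its place among the genes called is not independent of that. In all, 5 of the 10 genes passed, Cst7 included, each of them higher, and 21.3% of all tested genes passed in either direction.

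Lpl and Spp1 rose with Tat by less. Lpl was at 20.8, 23.3 and 19.995 CPM in Control and at 25.0, 58.0 and 36.4 CPM in Tat, without overlap, a log2 change of 0.80 (SE 0.29, limma FDR 0.0471). Spp1 was at 113, 226 and 70.1 CPM in Control and at 117, 656 and 462 CPM in Tat, a log2 change of 1.43 (SE 0.51, limma FDR 0.0401), and its replicate 1 with Tat fell within the Control range. Lpl did not pass without Tat replicate 2 (0.49, limma FDR 0.353), Tat replicate 3 (0.82, FDR 0.0669), Control replicate 1 (0.78, FDR 0.123), Control replicate 2 (0.87, FDR 0.0621) or Control replicate 3 (0.76, FDR 0.102). Spp1 did not pass without Tat replicate 2 (0.93, limma FDR 0.304), Tat replicate 3 (1.19, FDR 0.121), Control replicate 1 (1.38, FDR 0.114) or Control replicate 3 (1.04, FDR 0.176). In a fit to the Control and Tat libraries alone neither passed (limma FDR 0.133 for Lpl and 0.233 for Spp1).

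The receptor Trem2 and its adaptor were not called with Tat. Trem2 was at 25.2, 46.5 and 33.1 CPM in Control and at 24.8, 44.7 and 12.7 CPM in Tat, a log2 change of −0.48 (SE 0.51, limma FDR 0.516). Tyrobp had a log2 change of 0.69 (SE 0.40, FDR 0.213), Axl of 0.30 (SE 0.25, FDR 0.392), Gpnmb of −0.26 (SE 0.32, FDR 0.569) and Cd9 of −0.33 (SE 0.21, FDR 0.266). Of the myeloid index 6 of 10 genes rose with Tat (median log2 change 1.20 over the 10), with Aif1 at 1.65, Itgam at 1.62, Fcer1g at 1.46 and Cyth4 at 1.28. Where the myeloid index of each library was subtracted from every gene, Itgax (2.16, limma FDR 5.59e-06) and Clec7a (1.86, FDR 0.00397) were still higher, and Trem2 (−1.49, FDR 0.000416), Gpnmb (−1.27, FDR 0.0225) and Cd9 (−1.34, FDR 0.0381) were lower. On that relative scale 32.2% of all tested genes passed in either direction.

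Other genes of the state and of the signalling pathway also rose with Tat. Of 19 further disease-associated microglia genes 10 rose and 0 fell, led by the lysozyme gene Lyz2 (log2 change 3.74), the cholesterol hydroxylase Ch25h (3.57), the inhibitory receptor Lilrb4 (2.82) and the chemokine Ccl6 (2.46). Of 15 genes of Trem2 and Tyrobp signalling 6 rose and 0 fell, led by Trem1 (2.002), a related receptor that also uses Tyrobp, and by Vav1 (1.73), Pik3cg (1.45) and Ptpn6 (1.32). Of 18 partners and relatives of the set 8 rose and 1 fell. The largest were the Lpl inhibitor Angptl4 (5.56), the lectin Clec4a2 (2.59), the Spp1 receptor Cd44 (2.32) and the Itgax partner Itgb2 (1.78), and the one that fell was Gas6 (−0.62), the ligand of Axl. Of 10 homeostatic microglia genes 1 rose (Olfml3, 1.48), 1 fell and 8 did not pass, and relative to the myeloid index 0 were higher and 5 lower.

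Markers of other cells moved in the same comparison. Of 7 monocyte and neutrophil markers 6 were in the table and 3 had enough reads to be tested (S100a8, Csf3r and Camp). These 3 rose with Tat, but a low marker can enter the test because it is high with Tat. The summed level of the list was 4.10 to 13.4 CPM in Control and 31.96 to 91.8 CPM in Tat, while S100a9 and Mpo stayed near 0. Of 7 border macrophage markers 4 fell and 1 rose, with sums of 1014 to 1365 CPM in Control and 338 to 629 CPM in Tat. Whether monocytes or neutrophils were present, and whether they or border macrophages had a part in the rise of Itgax, Clec7a and Cst7, was not tested.

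With cocaine alone limma called 0 of the 10 genes and 0.201% of all tested genes. At an unadjusted p under 0.05 there was 1 of the 10, and 12.6% of all tested genes. That gene was Clec7a, at 2.64, 4.64 and 4.75 CPM, each above the Control libraries, with a log2 change of 0.74 (SE 0.30, limma FDR 0.281). Cocaine replicate 1 stood below the other replicates in Trem2 (27.2 against 95.2 and 56.6 CPM), Tyrobp (46.2 against 151 and 115 CPM) and Axl (90.3 against 255 and 204 CPM), and in the myeloid index (731 against 2355 and 1623 CPM). Without it, Axl (0.88, limma FDR 0.00895) and Clec7a (0.98, FDR 0.0466) were called, while the calls over all tested genes went from 32 to 1724.

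In cultures given Tat followed by cocaine, 3 genes passed against Control. Cst7 (log2 change 2.76, SE 0.50, limma FDR 0.000196), Itgax (2.19, SE 0.46, FDR 0.00108) and Clec7a (2.85, SE 0.30, FDR 2.57e-08) rose, where 14.9% of all tested genes passed. Their Tat-Cocaine libraries did not overlap with Control, with Itgax at 13.5, 10.8 and 11.4 CPM, Clec7a at 24.7, 12.9 and 19.5 CPM and Cst7 at 12.1, 9.13 and 2.25 CPM. Trem2 was at 17.6, 9.496 and 34.7 CPM, the lowest group mean of all 16, but its log2 change of −0.89 (SE 0.51, limma FDR 0.251) did not pass. Cd9 was below Control in all 3 libraries (351, 319 and 267 CPM against 382 to 438 CPM) without passing (−0.38, SE 0.21, FDR 0.243). The comparisons of Tat and of Tat-Cocaine share the Control libraries, so their values are not independent of each other.

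Between Tat-Cocaine and Tat cultures limma called 0 of the 10 genes and 0.0189% of all tested genes. In the paper's description cocaine was given for 24 h after the 48 h with Tat. Time since the addition of Tat may thus differ between these groups as well as cocaine. At an unadjusted p under 0.05 there was 1 of the 10, and 8.16% of all tested genes. It was Itgax, with 10.8 to 13.5 CPM in Tat-Cocaine and 16.2 to 42.2 CPM in Tat, a log2 change of −0.98 (SE 0.46, limma FDR 0.609). The 95% interval of the difference was −0.30 to 0.99 for Gpnmb, −0.63 to 0.58 for Clec7a and −1.44 to 0.62 for Trem2, so that changes of up to these sizes could have been missed.

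**Figure D3:**
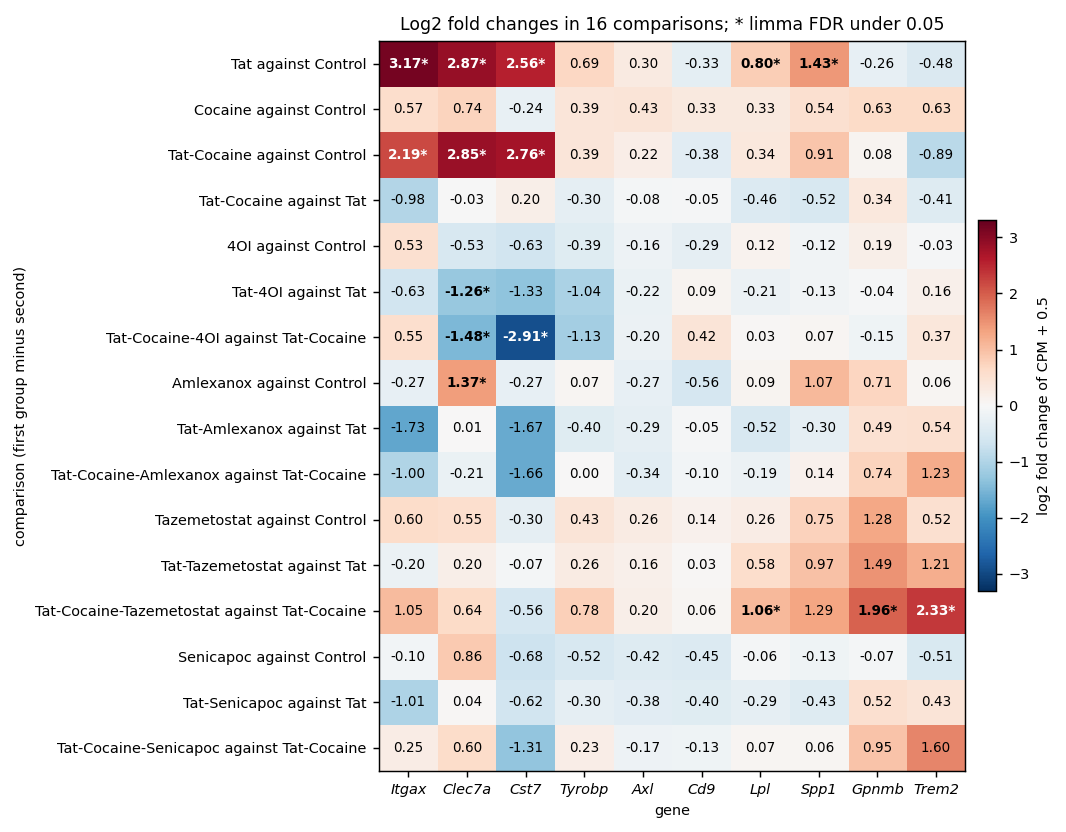
Log2 fold change of CPM + 0.5 for each of the 10 genes (columns) in the 16 comparisons of single groups (rows, first group minus second), on a colour scale from blue (lower) to red (higher), with an asterisk where limma's FDR was under 0.05. The asterisks under Tat lie on Itgax, Clec7a, Cst7, Lpl and Spp1, those of 4OI on Clec7a and Cst7, that of Amlexanox on Clec7a, and those of Tazemetostat on Lpl, Gpnmb and Trem2.

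4OI lowered Clec7a in Tat and in Tat-Cocaine cultures, and Cst7 in the latter. Tyrobp fell when the effect was averaged over the 3 backgrounds. Itgax, Lpl, Spp1, Gpnmb and Trem2 were not called in any 4OI comparison. In cultures without Tat, 0 of the 10 genes were called by limma (3.15% of all tested genes) and 0 had an unadjusted p under 0.05 (13.1% of all tested genes). There Clec7a was nonetheless at 1.44, 1.25 and 1.29 CPM with 4OI, each below the Control libraries (log2 change −0.53, SE 0.30, limma FDR 0.495), and Cst7 at 0.0736, 0.259 and 0.167 CPM likewise (−0.63, SE 0.50, FDR 0.698).

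With Tat, Clec7a was the 1 gene of the 10 that passed, where 15.6% of all tested genes did. It went from 17.2 to 21.6 CPM in the Tat libraries to 6.31, 9.62 and 7.01 CPM in the Tat-4OI libraries, a log2 change of −1.26 (SE 0.30, limma FDR 0.00376). Tyrobp, at 56.5, 82.3 and 36.6 CPM against 87.6, 150 and 114 CPM, had a log2 change of −1.04 (SE 0.40, limma FDR 0.0699), and Cst7, at 2.62, 1.77 and 1.46 CPM, one of −1.33 (SE 0.50, FDR 0.0656). In both genes all 3 Tat-4OI libraries lay below the Tat libraries without passing. Without Tat-4OI replicate 2, Tyrobp passed (−1.32, limma FDR 0.0359), and without Tat replicate 1, Cst7 passed (−1.78, FDR 0.0308). Itgax was at 10.9, 22.6 and 14.1 CPM, 1 library within and 2 below the Tat range of 16.2 to 42.2 CPM (−0.63, SE 0.46, limma FDR 0.348).

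With Tat and cocaine, 2 of the 10 genes passed, where 7.36% of all tested genes did. Cst7 fell from 12.1, 9.13 and 2.25 CPM to 0.749, 0.292 and 0.297 CPM, a log2 change of −2.91 (SE 0.50, limma FDR 0.000185). Clec7a fell to 5.48, 7.05 and 6.39 CPM, a log2 change of −1.48 (SE 0.30, limma FDR 0.00133). In a fit to these 6 libraries alone neither passed (limma FDR 0.1025 and 0.0694). Tyrobp was at 28.5, 84.6 and 30.8 CPM against 111, 76.6 and 93.9 CPM (−1.13, SE 0.40, limma FDR 0.0786) and passed without Tat-Cocaine-4OI replicate 2 (−1.63, FDR 0.0109). Itgax did not follow, with 10.1, 33.5 and 16.1 CPM against 10.8 to 13.5 CPM (0.55, SE 0.46, limma FDR 0.532).

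Averaged over cultures without Tat, with Tat and with Tat and cocaine, 4OI lowered 3 of the 10 genes, where 22.8% of all tested genes passed in either direction. The log2 changes were −1.62 for Cst7 (SE 0.29, limma FDR 7.18e-05), −1.09 for Clec7a (SE 0.17, FDR 1.23e-05) and −0.85 for Tyrobp (SE 0.23, FDR 0.00624). Tyrobp did not pass without replicate 1 of every group (−0.76, limma FDR 0.0920) or without replicate 3 of every group (−0.65, FDR 0.256). Gpnmb was at −0.00 with a 95% interval of −0.37 to 0.37, Lpl at −0.02 (−0.36 to 0.32), Spp1 at −0.06 (−0.65 to 0.54) and Itgax at 0.15 (−0.39 to 0.69). The members that fell did so beside other myeloid genes. Of the myeloid index 9 of 10 genes fell (median −0.92 over the 10), among them Aif1 (−1.11), Ctss (−1.10), Itgam (−1.004) and Fcer1g (−0.94). On the scale relative to the index, 7 members were higher with 4OI (Trem2 at 1.07, Itgax at 1.048, Cd9 at 0.97, Gpnmb at 0.90, Lpl at 0.88, Spp1 at 0.84 and Axl at 0.70), but so did 90.6% of all tested genes pass on that scale, and Tyrobp, Clec7a and Cst7 did not pass.

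Genes of the Trem2 and Tyrobp signalling list fell as well, beside the fall of the myeloid index. Of 15 of them 8 fell and 0 rose with 4OI over the 3 backgrounds, led by Pik3cg (log2 change −1.37), Ptpn6 (−1.03), Vav1 (−1.01) and Btk (−0.96). Of 19 further disease-associated microglia genes 9 fell and 3 rose. Lilrb4 (−1.54), Ch25h (−1.34) and the lysosomal marker Cd68 (−0.95) fell most, and the ferritin chain Fth1, an iron store, rose (1.18). Of 18 partners and relatives 7 fell and 2 rose, with Clec4a2 at −1.53 and Itgb2 at −0.83 among the former and the Cd9-related tetraspanin Cd81 at 0.71 among the latter. Of 7 border macrophage markers 6 fell, led by Cd163 (−3.02), and their summed level was 105 to 403 CPM in Tat-4OI and 338 to 629 CPM in Tat. The part of these cells in the fall of Clec7a, Cst7 and Tyrobp was not tested.

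With Amlexanox, averaged over the 3 backgrounds, Cst7 and Itgax fell and Gpnmb rose, 3 of the 10 where 7.99% of all tested genes passed in either direction. The log2 changes were −1.20 for Cst7 (SE 0.29, limma FDR 0.00806), −1.0002 for Itgax (SE 0.27, FDR 0.0161) and 0.65 for Gpnmb (SE 0.18, FDR 0.0236). Of the myeloid index 0 of 10 genes were called by limma or had an unadjusted p under 0.05 (median −0.0036), the latter being met by 22.5% of all tested genes. Relative to it Itgax was lower (−0.97, limma FDR 0.00987), where 0.0378% of all tested genes passed. That share is no measure of how unusual Itgax is. The subtraction carries the spread of the index into genes that do not follow it, and Itgax varied with it (r = 0.64 over the 48 libraries). Without the subtraction, Itgax did not pass when Tat replicate 2 was left out (−0.87, limma FDR 0.0517). Gpnmb did not pass without Tat-Cocaine replicate 2 (0.55, FDR 0.0684), Amlexanox replicate 3 (0.60, FDR 0.0582) or Tat-Amlexanox replicate 1 (0.59, FDR 0.0623). In a fit to these groups alone Cst7 did not pass (limma FDR 0.0545). Without replicate 1 of every group, Cst7 (limma FDR 0.0981), Itgax (FDR 0.0882) and Gpnmb (FDR 0.212) all failed to pass. Without replicate 2 of every group Cst7 (limma FDR 0.1145) and Gpnmb (FDR 0.0910) did not pass. Without replicate 3 of every group Itgax (limma FDR 0.247) and Gpnmb (FDR 0.0755) did not pass.

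In cultures without Tat, Clec7a rose with Amlexanox, the 1 gene of the 10 that passed, where 11.4% of all tested genes did. It was at 3.34, 8.34 and 8.73 CPM against 1.88 to 2.54 CPM in Control, a log2 change of 1.37 (SE 0.30, limma FDR 0.00328), and did not pass without Amlexanox replicate 3 (1.15, FDR 0.0730) or in a fit to these 6 libraries alone (FDR 0.231). Cd9 had values of 314, 364 and 182 CPM, each below Control (−0.56, SE 0.21, limma FDR 0.0856), and passed without Amlexanox replicate 2 (−0.76, FDR 0.0359). Without Amlexanox replicate 3, the lowest of the 3, the change was −0.26 (limma FDR 0.655). Of 8 astrocyte markers 5 fell in the same comparison, led by Gja1 (−1.01), Aldh1l1 (−0.96) and Aldoc (−0.90), and replicate 3 had the lowest astrocyte sum of all 48 libraries (5550 CPM, against 12104 and 8541 CPM in replicates 1 and 2 and 9411 to 10163 CPM in Control). The part of astrocytes in the level of Cd9 was not tested. Gpnmb stood at 595, 440 and 707 CPM, each above Control (0.71, SE 0.32, limma FDR 0.145).

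With Tat, limma called 0 of the 10 genes for Amlexanox and 0.837% of all tested genes. At an unadjusted p under 0.05 there were 2 of the 10, and 12.5% of all tested genes. Itgax was at 7.46, 8.88 and 4.84 CPM, each below the lowest Tat library of 16.2 CPM (log2 change −1.73, SE 0.46, limma FDR 0.0608). In this comparison same-numbered replicates deviated together, and with the replicate number as a block Itgax passed (−1.73, limma FDR 0.00162), 493 instead of 133 genes being called in all. Cst7 was at 0.445, 1.85 and 2.57 CPM, each below Tat (−1.67, SE 0.50, limma FDR 0.104). Without Tat replicate 1, both Itgax (−1.997, limma FDR 0.0462) and Cst7 (−2.12, FDR 0.0443) passed. Clec7a did not follow them, with a log2 change of 0.01 and a 95% interval of −0.60 to 0.61.

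With Tat and cocaine, limma called 0 of the 10 genes for Amlexanox and 0.925% of all tested genes. At an unadjusted p under 0.05 there were 4 of the 10, and 17.8% of all tested genes. The 4 were Trem2, at 42.5, 48.7 and 38.5 CPM (log2 change 1.23, SE 0.51, limma FDR 0.205), Gpnmb, at 604, 594 and 644 CPM (0.74, SE 0.32, FDR 0.220), Itgax, at 5.84, 7.96 and 3.88 CPM (−1.003, SE 0.46, FDR 0.254), and Cst7, at 1.44, 2.69 and 1.22 CPM (−1.66, SE 0.50, FDR 0.0913). The libraries of Trem2, Gpnmb and Itgax did not overlap with Tat-Cocaine, but the share of all tested genes without overlap is not given here. Without Tat-Cocaine replicate 3, Trem2 (1.69, limma FDR 0.0489), Gpnmb (1.08, FDR 0.0403) and Cst7 (−2.33, FDR 0.00724) passed, while the calls over all tested genes went from 147 to 1317. The response to Tat itself was not called as different with Amlexanox for any of the 10 genes (0 by limma, as against 1.84% of all tested genes, and 2 at an unadjusted p under 0.05, as against 18.2%). Clec7a came nearest, with a difference of −1.36 (SE 0.42, limma FDR 0.0728), and passed without Amlexanox replicate 1 (−1.78, FDR 0.00666), while the calls over all tested genes went from 292 to 1602.

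**Figure D4:**
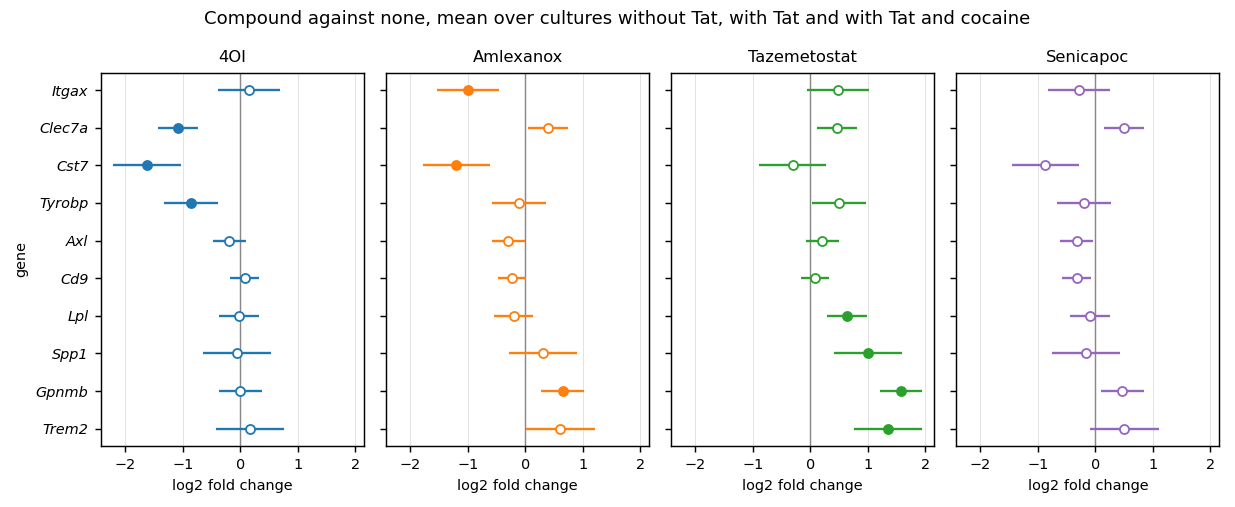
Log2 fold change of CPM + 0.5 for each compound against none (x axis), averaged over cultures without Tat, with Tat and with Tat and cocaine, for the 10 genes (y axis), with 95% intervals from limma and filled circles where the FDR was under 0.05. 4OI has filled circles at Clec7a, Cst7 and Tyrobp, Amlexanox at Itgax, Cst7 and Gpnmb, Tazemetostat at Lpl, Spp1, Gpnmb and Trem2, and Senicapoc at 0 genes.

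With Tazemetostat, averaged over the 3 backgrounds, Gpnmb, Trem2, Spp1 and Lpl rose, 4 of the 10 where 11.4% of all tested genes passed in either direction. The log2 changes were 1.58 for Gpnmb (SE 0.18, limma FDR 5.46e-06), 1.35 for Trem2 (SE 0.29, FDR 0.00582), 1.01 for Spp1 (SE 0.29, FDR 0.0272) and 0.63 for Lpl (SE 0.17, FDR 0.0190). Cst7 was at −0.31 (95% interval −0.90 to 0.28), Itgax at 0.48 (−0.06 to 1.03) and Clec7a at 0.46 (0.11 to 0.81, limma FDR 0.0689). Of the myeloid index limma called 0 of 10 genes, 6 had an unadjusted p under 0.05 (33% of all tested genes), and the median was 0.60. Relative to the index, Gpnmb (1.06, limma FDR 0.0304) and Trem2 (0.84, FDR 0.0304) were higher, where 0.0315% of all tested genes passed. The subtraction carries the spread of the index into genes that do not follow it. Gpnmb and Trem2 did vary with it (r = 0.59 and 0.70 over the 48 libraries). The small share is thus no measure of how unusual these genes are.

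Gpnmb was above its reference group in all 3 backgrounds and passed in 1 of them. In cultures without Tat, Gpnmb was at 625, 787 and 1232 CPM against 278, 362 and 418 CPM in Control, without overlap (log2 change 1.28, SE 0.32, limma FDR 0.598). In that comparison 0 of the 10 genes and 0 of all tested genes were called by limma (0% of 15890), and 1 of the 10, Gpnmb, had an unadjusted p under 0.05, as did 3.62% of all tested genes. With Tat, Gpnmb was at 633, 1221 and 696 CPM against 297, 318 and 256 CPM, again without overlap (1.49, SE 0.32, limma FDR 0.0898). There too 0 of the 10 and 0% of all tested genes were called by limma, and 2 of the 10 had an unadjusted p under 0.05, as did 5.36% of all tested genes. The other one was Trem2, at 35.1, 113 and 45.01 CPM against 24.8, 44.7 and 12.7 CPM (1.21, SE 0.51, limma FDR 0.806).

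With Tat and cocaine, Tazemetostat raised 3 of the 10 genes, where 28.7% of all tested genes passed. Trem2 was at 76.4, 127 and 81.6 CPM against 17.6, 9.496 and 34.7 CPM, a log2 change of 2.33 (SE 0.51, limma FDR 0.00580). Gpnmb was at 1247, 1426 and 1633 CPM against 338, 248 and 591 CPM, a log2 change of 1.957 (SE 0.32, limma FDR 0.00103). Lpl was at 51.8, 80.8 and 44.4 CPM against 30.4, 28.9 and 22.8 CPM, a log2 change of 1.06 (SE 0.29, limma FDR 0.0124). The libraries of Spp1 (511, 796 and 434 CPM, 1.29, FDR 0.0522), Tyrobp (146, 213 and 131 CPM, 0.78, FDR 0.130), Itgax (21.99, 34.8 and 20.7 CPM, 1.052, FDR 0.0802) and Clec7a (30.6, 31.5 and 25.1 CPM, 0.64, FDR 0.0984) were also each above Tat-Cocaine, but these genes did not pass. In all, 7 of the 10 genes lay above without overlap, as did 24.8% of all tested genes.

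This comparison leaned on single libraries. Without Tat-Cocaine-Tazemetostat replicate 2, the number of genes called in all fell from 4554 to 174, and Trem2 (2.10, limma FDR 0.0529) and Lpl (0.81, FDR 0.101) did not pass. Without Tat-Cocaine replicate 1, 262 genes were called and Lpl did not pass (1.14, limma FDR 0.0558). For the average over backgrounds, Lpl did not pass without Tat-Tazemetostat replicate 2 (0.60, limma FDR 0.0578) or Tat-Cocaine-Tazemetostat replicate 2 (0.55, FDR 0.0568). Spp1 did not pass without Tat replicate 1 (0.76, FDR 0.0657), Control replicate 1 (0.99, FDR 0.0578), Tat-Cocaine replicate 2 (1.005, FDR 0.0518), Tazemetostat replicate 2 (0.95, FDR 0.0504), Tat-Tazemetostat replicate 2 (0.99, FDR 0.0703) or Tat-Cocaine-Tazemetostat replicate 2 (0.92, FDR 0.0684). Gpnmb and Trem2 passed in the average whichever single library was left out, but without replicate 1 of every group Trem2 did not (1.51, limma FDR 0.0767).

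Other genes moved beside them in Tat-Cocaine-Tazemetostat cultures. Of the myeloid index 6 of 10 genes rose (median 1.12 over the 10), and of 10 homeostatic microglia genes 5 rose, among them P2ry12 (1.66) and P2ry13 (1.54). Of 15 genes of Trem2 and Tyrobp signalling 8 rose, led by the lipid phosphatase Inpp5d (1.56), Vav1 (1.499), Syk (1.28) and Ptpn6 (1.27). Of 19 further disease-associated microglia genes 9 rose, led by the cathepsins Ctsz (1.29) and Ctsd (1.16) and by Ccl6 (1.14) and Cd68 (1.13). Of 10 neuron markers 8 fell, led by Snap25 (−1.58), their summed level being 1154 to 1749 CPM against 2495 to 3229 CPM. Of 7 oligodendrocyte markers 3 fell, with sums of 158 to 260 CPM against 456 to 2160 CPM. Relative to the myeloid index, Trem2 (1.27, limma FDR 0.0279) and Gpnmb (0.90, FDR 0.0415) were higher and Cst7 (−1.62, FDR 0.0387) and Axl (−0.86, FDR 0.0376) lower, where 55.3% of all tested genes passed. The part of the shift between cell types in the rise of Trem2, Gpnmb and Lpl was not tested.

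With Senicapoc limma called 0 of the 10 genes in each comparison. At an unadjusted p under 0.05 there were 2 genes without Tat, 1 with Tat, 3 with Tat and cocaine and 5 in the average over backgrounds. Of all tested genes 8.67%, 18.3%, 15.5% and 17.9% had such a p in these 4 comparisons, and 0%, 0.409%, 0.0441% and 1.16% were called. In the average, Cst7 was at −0.87 (95% interval −1.46 to −0.28, limma FDR 0.112), Clec7a at 0.50 (0.15 to 0.85, FDR 0.127), Gpnmb at 0.47 (0.10 to 0.84, FDR 0.171), Cd9 at −0.32 (−0.57 to −0.07, FDR 0.160) and Axl at −0.32 (−0.61 to −0.04, FDR 0.221). Cst7 passed in it without Tat replicate 1 (−1.02, limma FDR 0.0494), Tat-Cocaine replicate 3 (−1.09, FDR 0.0258) or Tat-Senicapoc replicate 1 (−1.11, FDR 0.0331), where 438, 540 and 173 instead of 184 of all tested genes were called. With Tat and cocaine, Trem2 was at 52.9, 64.1 and 51.0 CPM and Gpnmb at 610, 711 and 824 CPM, each above the Tat-Cocaine libraries (log2 changes 1.60 and 0.95, limma FDR 0.177 and 0.182). Without Tat-Cocaine replicate 3, Trem2 (2.06, limma FDR 0.0260), Gpnmb (1.29, FDR 0.0230) and Cst7 (−1.98, FDR 0.0224) passed, while the calls over all tested genes went from 7 to 985.

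In the averages over backgrounds the calls of the 4 compounds can be set side by side. Cst7 fell with 4OI and with Amlexanox, Clec7a and Tyrobp fell with 4OI, and Itgax fell with Amlexanox. Gpnmb rose with Amlexanox and with Tazemetostat, Trem2, Spp1 and Lpl rose with Tazemetostat, and Senicapoc had 0 calls. The compounds share the Control, Tat and Tat-Cocaine libraries, and a difference between compounds was not tested. The response to Tat was not called as different for any of the 10 genes by limma with 4OI (0.497% of all tested genes called), with Tazemetostat (0%) or with Senicapoc (0%). At an unadjusted p under 0.05 there were 0 of the 10 in each, and 11.9%, 1.71% and 4.8% of all tested genes. Axl was called in 0 of the 24 comparisons and Cd9 in 0 of 24.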

How the data were processed

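The authors trimmed, aligned and counted the reads (Trim Galore 0.4.5, STAR 2.7.2, SAMtools 1.5 and featureCounts of Subread 1.5.3 in the submitters' processing notes). The signal the authors deposited is 1 TMM-scaled CPM value per gene and library. The build is Rnor_6.0 in the paper's methods and mRatBN7.2, with hg38, in the notes, so no gene positions are given beyond the promoters. Reading the value of 1 read off each library, 84.8 to 86.8% of values were whole reads within 0.02, so count tests were not run. 0 columns were unassigned. The authors' fold changes, p-values and FDR were not used.

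Genes that reached 0.5 CPM in 3 or more libraries were tested with limma 3.58.1 in R 4.3.3 (lmFit, eBayes with trend, two-sided) on log2(CPM + 0.5), with Benjamini-Hochberg FDR under 0.05. At 0.5 CPM a library held 8.58 to 14.96 reads. The fit was tested only on simulated data with independent noise. These lack deviations shared between libraries, so the simulation says nothing about how the fit behaves with them. In the 16 single-group comparisons, same-numbered replicates deviated together (all 3 correlations above 0.1) in 5, namely Tat-Cocaine, 4OI, Tazemetostat and Senicapoc against Control and Tat-Amlexanox against Tat. With the replicate number as a block, Senicapoc against Control gave 15 genes in all where 0 were called without it.

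The members, lists and comparisons were chosen with earlier results of these data known. Named genes are all 10 members, at most 4 called genes with the largest change per list and comparison (fewer where space allowed), and the 3 genes most alike to each member. All lists were hand-written. Lists without a result in the text (oligodendrocyte precursors, endothelium and fibroblasts) are given in the closing section. For Tat against Control, 1 homeostatic microglia gene is counted but its own values are not reported here.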

Additional observations from a re-analysis of the deposited data

How the results depend on the processing

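The number of the 10 genes called was recomputed in all 24 comparisons, and 25 calls over them became 21 to 26 with another pseudocount (0.1 or 1 CPM), filter (none or 2 CPM), scaling (equal sums, median ratio or quantile), no trend, or a fit to the compared groups alone. None of the alternatives tried turned the direction of a called gene. For Tat against Control 3 genes instead of 5 were called with no filter, values scaled to equal sums, library weights or the compared groups alone, Lpl and Spp1 being the 2 lost. In the fit to the compared groups alone, 0 instead of 2 were called for Tat-Cocaine-4OI, 0 instead of 1 for Amlexanox against Control, and 6 instead of 3 for Tat-Cocaine-Tazemetostat. A pseudocount of 1 CPM called 1 gene for Tat-Amlexanox against Tat, where 0 were called. Library weights, whose estimation gave convergence warnings, called 63 in all. They ran from 0.000329 (Tat-Cocaine-4OI replicate 3) to 23.3 (Tat-Tazemetostat replicate 1), so that some groups did not rest evenly on their 3 libraries. Counts with these weights are therefore only a description. With them the counts were 3 for 4OI against Control, 3 for Tat-4OI, 1 for the response to Tat with 4OI, 1 for Tat-Amlexanox, 4 for Tat-Cocaine-Amlexanox, 6 for the mean of Amlexanox, 2 for the response to Tat with Amlexanox, 1 for Tazemetostat against Control, 2 for Tat-Tazemetostat, 8 for Tat-Cocaine-Tazemetostat, 3 for Senicapoc against Control, 4 for Tat-Cocaine-Senicapoc and 6 for the mean of Senicapoc. The cause was not tested.

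With the replicate number as a block, 35 calls were made. The count went from 0 to 1 for Tat-Amlexanox, where same-numbered libraries deviated together. Elsewhere the block gave 3 instead of 1 for Tat-4OI and 3 instead of 2 for Tat-Cocaine-4OI. It gave 1 instead of 0 for Tat-Tazemetostat and 6 instead of 3 for Tat-Cocaine-Tazemetostat. In these comparisons the 3 correlations over all tested genes were not all above 0.1. Yet replicate 2 was the highest of its group in 16 of 16 groups for Axl, 15 for Tyrobp and 14 for Trem2 and Lpl. For Itgax it was 12, for Spp1 11, for Cst7 8, for Cd9 7, for Gpnmb 6 and for Clec7a 5. In the other paired comparisons the block changed no call among the 10 genes. In the averages over backgrounds it also called Axl for Amlexanox (−0.30, limma FDR 0.0439) and Tyrobp for Tazemetostat (0.49, FDR 0.0253).

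Leaving out 1 library, or 1 replicate number in every group (added after the data were seen), the counts ran from 3 to 5 for Tat, 0 to 2 for Cocaine, 2 to 3 for Tat-Cocaine, 0 to 2 for Tat-4OI, 1 to 3 for Tat-Cocaine-4OI, 2 to 3 for the mean of 4OI, 0 to 2 for Amlexanox, 0 to 2 for Tat-Amlexanox, 0 to 3 for Tat-Cocaine-Amlexanox, 0 to 4 for the mean of Amlexanox, 0 to 1 for the response to Tat with Amlexanox, 0 to 3 for Tat-Cocaine-Tazemetostat, 1 to 5 for the mean of Tazemetostat, 0 to 3 for Tat-Cocaine-Senicapoc and 0 to 1 for the mean of Senicapoc. Without replicate 1, 2 or 3 in every group, 16, 20 and 15 calls were left. The calls that passed in all of these fits were Cst7, Itgax and Clec7a for Tat, Cst7 and Clec7a for Tat-Cocaine, Cst7 for Tat-Cocaine-4OI, Cst7 and Clec7a for the mean of 4OI, and Gpnmb for the mean of Tazemetostat. Over all tested genes, Tat gave 3382 calls, or 1242 in the compared groups alone, and Amlexanox 1804, or 0 in the compared groups alone. Depth limits Cst7 most, since 0.5 CPM stood for 8.58 to 14.96 reads.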

Other observations

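Lists of cell types that the text has not used also hold values. Of 5 oligodendrocyte precursor markers 0 were called with Tat and 2 fell with Tat-Cocaine-Tazemetostat against Tat-Cocaine, Cspg4 (log2 change −1.05) and Olig2 (−0.62). Of 5 endothelium and fibroblast markers 0 were called with Tat, 1 fell with 4OI over the 3 backgrounds (Col1a1, −0.98) and 2 fell with Tat-Cocaine-Tazemetostat (Dcn, −2.69, and Lum, −2.12). Of 8 astrocyte markers 3 fell with Tat, Gja1 (−1.14), Aldoc (−1.06) and Gfap (−0.70), and 3 rose with 4OI over the 3 backgrounds, Slc1a2 (0.83), Gfap (0.50) and Sox9 (0.33).

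Over the 48 libraries, Cd9 ran with the markers of oligodendrocytes (Pearson's r = 0.45), of oligodendrocyte precursors (0.45) and of astrocytes (0.34). Cocaine replicate 3 was the highest library for Cd9 (833 CPM) and for both oligodendrocyte lists, and r without it was not computed. Clec7a had an r of 0.88 with the 3 tested monocyte and neutrophil markers and 0.87 with the further disease-associated genes. With the partners and relatives its r was 0.82. S100a9, Mpo and Ly6c of the monocyte and neutrophil list stayed at or near 0 CPM. Trem2 was nearer to the homeostatic microglia genes (0.84) than Clec7a was (0.41), and nearer to them than to the further disease-associated genes (0.52). The libraries share treatments and cell makeup, and these values are descriptions.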
